A study of Mus musculus with 8 samples.

Results

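Lymphocytes leave the thymus and other lymphoid organs along a gradient of sphingosine-1-phosphate (S1P), a signalling lipid, and the genes described here are 7 regulators of that exit: the S1P receptors S1pr1, S1pr2 and S1pr4, the activation antigen Cd69, the actin regulator coronin 1A (Coro1a), the S1P-making kinase Sphk1 and the S1P-degrading lyase Sgpl1. The members were taken as every probe set whose current or earlier gene symbol on the array platform is one of these names. Of the 22690 probe sets, 9 met the rule, and they carry 5 of the 7 genes, out of 12394 genes that alone name a probe set: S1pr1 and S1pr4 with 1 probe set each, Sphk1 and Sgpl1 with 2 each, and Coro1a with 3. No probe set of S1pr2 or Cd69 was found among the annotated ones, and these genes were not analysed here. These 9 probe sets all entered the tests, without a filter on low values.

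S1P is kept high in blood and lymph and low inside lymphoid tissue, and a lymphocyte that carries the receptor S1PR1 moves toward the higher level and so exits. In the thymus, Sgpl1 keeps tissue S1P low by cleaving it, sphingosine kinases such as Sphk1 make it, and maturing thymocytes are known to raise S1pr1 before they leave. CD69 binds S1PR1 and takes it from the surface, and coronin 1A, a partner of F-actin and the Arp2/3 complex, is known to be required in T cells for leaving the thymus. S1pr4 is a receptor found mainly on blood-forming and lymphoid cells.

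Expression was measured on 8 Affymetrix arrays of sorted CD4-negative CD8-negative cells from female C57BL/6 mice aged 6 to 8 weeks, in 4 groups of 2 arrays. The dioxin TCDD (2,3,7,8-tetrachlorodibenzo-p-dioxin), which activates the aryl hydrocarbon receptor (AhR), was given intraperitoneally at 10 µg/kg in corn oil, and controls received corn oil alone. After 5 days the thymocytes of all groups, the controls included, were labelled in the animal with the dye FITC, and 24 h later the double-negative cells of the thymus (thymocytes) and of the spleen (emigrants) were sorted directly into lysis reagent. The groups are thymocytes after oil, thymocytes after TCDD, emigrants after oil and emigrants after TCDD. Whether both arrays of a group stem from different animals is not given, so the p-values reflect the spread of these samples alone, which could be technical, and 2 arrays per group limit the precision of every value. Groups follow the sample titles. For emigrants oil 1 the Treatment field reads TCDD, for emigrants oil 2 it reads Dioxane 2 with thymus as the tissue, the Tissue field of emigrants TCDD 1 also reads thymus, and the TCDD dose appears there as 10 nM.

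Several arrays stood apart in ways that bear on the members. The 9 measured markers of T lineage and double-negative cells had mean log2 levels between 8.60 and 8.94 on the 8 arrays, with array medians between 4.81 and 4.91. This mean holds opposite shifts: averaged over oil and TCDD, 5 of the 9 were higher and 4 lower in emigrants. Il2ra lay at 6.88 to 8.47 in thymocytes and 4.77 to 6.12 in emigrants. Cd44 lay at 7.21 to 8.37 in thymocytes and 8.54 to 9.41 in emigrants. Rag1, a recombinase gene of immature thymocytes, lay between 9.33 and 10.21 in thymocytes and at 9.81 in emigrants oil 2, but at 3.89, 5.10 and 3.75 in the other emigrant arrays. Other genes of that stage were not at the thymocyte level in emigrants oil 2. Ptcra was at 7.00 there (thymocytes 8.83 to 9.45, other emigrant arrays 5.08 to 5.35). Dntt was at 10.68 (thymocytes 12.41 to 12.84, other emigrant arrays 6.09 to 11.62). Rag2 was at 4.56 (thymocytes 4.82 to 5.31, other emigrant arrays 3.93 to 4.11), below the array medians in all emigrants. NK cell markers (7 of 8 measured) had mean levels of 6.46 to 7.24 in the thymocyte arrays, 7.98 and 7.72 in oil emigrants and 7.67 and 6.54 in TCDD emigrants. Averaged over oil and TCDD, 5 of the 7 were higher and 2 lower in emigrants. Prf1 (4.82 to 5.16) and Ncr1 (4.72 to 5.23) stayed near the array medians on all arrays. Gzma lay at 10.74 to 12.29 in thymocytes and 7.96 to 11.53 in emigrants. Granulocyte markers (all 9 measured) had a mean of 8.36 in emigrants TCDD 1 and of 5.70 in emigrants TCDD 2. Cyp1b1, an AhR target gene, lay at 4.69 and 6.25 in oil emigrants and at 6.87 and 8.36 in TCDD emigrants. The 3 prime minus 5 prime signal of Gapdh, a measure of RNA quality and amplification, was 6.23 and 5.90 in the thymocyte arrays numbered 1 and between 4.78 and 5.32 in the other 6 arrays. The same measure for actin was highest in emigrants TCDD 1 (4.68), followed by the thymocyte arrays numbered 1 (4.12 and 4.31), so the 2 controls do not single out the same arrays. Macrophage and dendritic markers (all 7 measured) had means of 6.51 to 6.95 in thymocytes and 6.61, 7.49, 7.24 and 7.84 in emigrants. Stromal markers (all 5 measured) had a mean of 5.81 in emigrants oil 2 and of 4.50 to 5.04 in the other arrays. B cell markers (5 of 6 measured) had means of 5.37 to 6.16 in thymocytes and 4.55 to 4.86 in emigrants. In bulk samples such as these, fewer cells of a type and less RNA per cell cannot be told apart.

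The S1P receptors S1pr1 and S1pr4 lay higher in splenic emigrants than in thymocytes after oil, by 1.95-fold and 2.59-fold, and Coro1a lay lower by 1.72-fold, but none of these differences passed the test over all probe sets. Between TCDD and oil, none of the 5 genes passed that test in either place. No probe set of the whole table passed limma's adjusted threshold of 0.05 in the 2 comparisons of emigrants with thymocytes, in the 2 of TCDD with oil or in the difference between TCDD effects (0 of 22626 tested, or 0% in each).

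**Figure D1:**
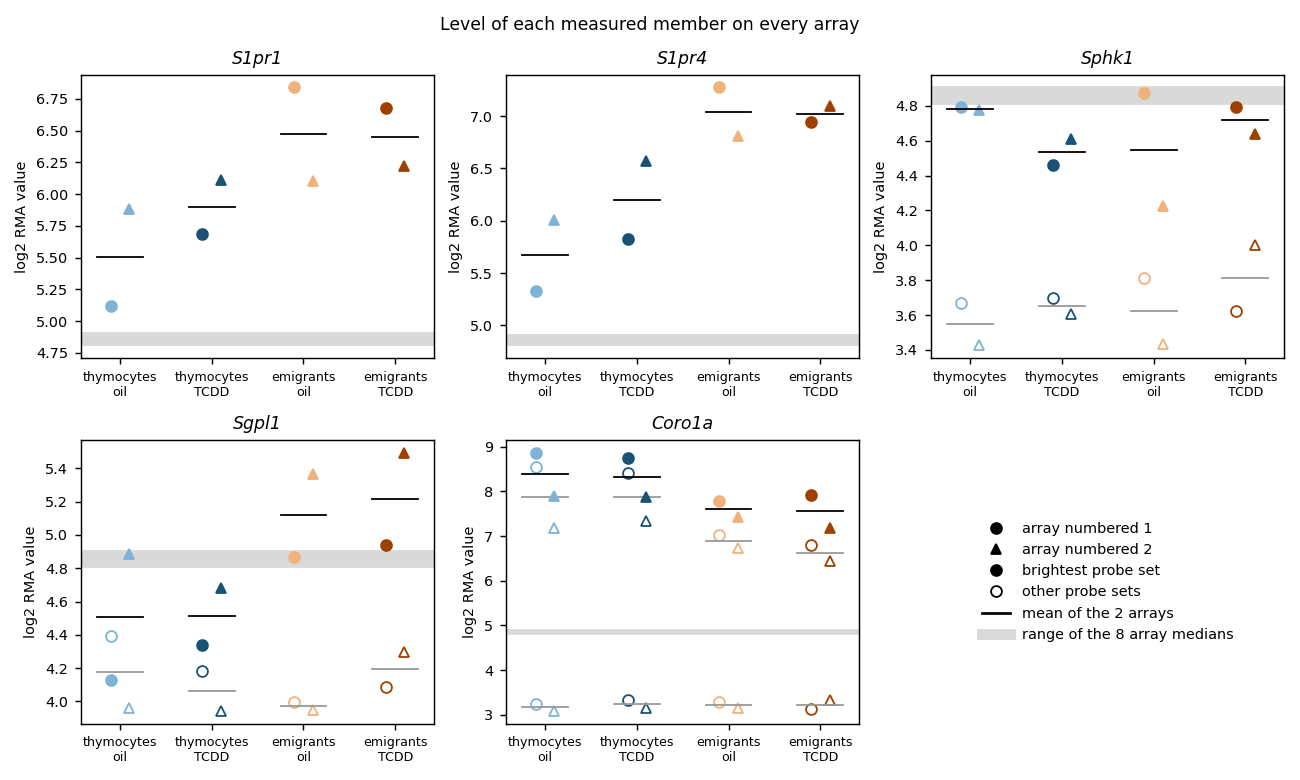
The log2 RMA value (vertical axes) of every probe set of the 5 measured members on each of the 8 arrays, by group. Circles are arrays numbered 1 and triangles arrays numbered 2, filled symbols are the brightest probe set of the gene, bars are means of 2 arrays, and the grey band spans the array medians (4.81 to 4.91). S1pr1 and S1pr4 sit higher in emigrants, the 2 bright Coro1a probe sets sit lower, and both Sphk1 probe sets lie in or below the band.

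S1pr1, the main exit receptor of T cells (probe set 1423571_at), was read at log2 values of 5.12 and 5.89 in oil thymocytes, 5.68 and 6.11 in TCDD thymocytes, 6.84 and 6.10 in oil emigrants and 6.68 and 6.22 in TCDD emigrants. All 8 values were above the array medians. Both emigrant arrays lay above both thymocyte arrays within each treatment, while over both treatments thymocytes TCDD 2 and emigrants oil 2 overlapped by a small margin. The emigrant mean was higher by 0.97 on the log2 scale under oil (SE 0.368, 95% confidence interval 0.08 to 1.86, limma adjusted p = 0.51, unadjusted p = 0.0376, n = 2 against 2). Under TCDD it was higher by 0.55 (SE 0.368, interval -0.34 to 1.44, limma adjusted p = 0.807, n = 2 against 2). Without thymocytes oil 1 the difference under oil was 0.59, and that under TCDD was 0.34 without thymocytes TCDD 1 and 0.32 without emigrants TCDD 1. Emigrants oil 2, the array with Rag1 at 9.81, had the lowest S1pr1 of the emigrants (6.10), and without it the difference under oil was 1.34. Emigrants TCDD 2, with Rag1 at 3.75, had the next lowest S1pr1 (6.22). A relation between the 2 genes was not tested.

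The order of the S1pr1 group means was emigrants after oil (6.47 ± 0.52, SD, n = 2), emigrants after TCDD (6.45 ± 0.32), thymocytes after TCDD (5.90 ± 0.30) and thymocytes after oil (5.50 ± 0.54). The first pair and the last pair of this order overlapped in their arrays, and the step between them, that of the TCDD groups, did not pass the test. S1pr1 is also a gene of endothelial cells. Of their listed markers, Cdh5, Pecam1, Tek and Tie1 lay below the array medians on all 8 arrays. Kdr (5.83 to 6.24) and Egfl7 (6.10 to 6.83) lay above them on all 8. The part of such cells in the S1pr1 values was not tested. The list of 6 endothelial markers had mean levels of 4.58 to 4.69 in thymocyte arrays and 4.45 to 4.67 in emigrant arrays.

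S1pr4 (probe set 1451024_at) separated emigrants from thymocytes more clearly. Its log2 values were 5.33 and 6.01 in oil thymocytes, 5.83 and 6.57 in TCDD thymocytes, 7.27 and 6.81 in oil emigrants and 6.94 and 7.10 in TCDD emigrants. All 4 emigrant arrays lay above all 4 thymocyte arrays, and emigrants varied little, with an SD of 0.198 over 4 arrays against 0.511 in thymocytes. The emigrant mean was higher by 1.37 under oil (SE 0.336, interval 0.56 to 2.19, limma adjusted p = 0.314, unadjusted p = 0.00596) and by 0.82 under TCDD (SE 0.336, interval 0.00 to 1.63, limma adjusted p = 0.669, unadjusted p = 0.0492). Without thymocytes TCDD 1 the difference under TCDD was 0.45. That under oil was 1.03 without thymocytes oil 1 and 1.60 without emigrants oil 2. The Rag1 and NK marker levels given above differ between the same arrays, and their part in the receptor differences was not tested.

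The group means of S1pr4 ran from emigrants after oil (7.04 ± 0.33, SD, n = 2) and emigrants after TCDD (7.02 ± 0.11) down to thymocytes after TCDD (6.20 ± 0.52) and thymocytes after oil (5.67 ± 0.48). The first pair and the last pair each overlapped, and the step between TCDD emigrants and TCDD thymocytes is the comparison given above. Among all probe sets tested, 38.7% had groups that did not overlap between emigrants and thymocytes under oil and 35.7% under TCDD, so a separation of 2 arrays from 2 is common in this table. Of the 9 member probe sets, 4 were so separated under oil (both receptors and both bright Coro1a probe sets) and 5 under TCDD (both receptors and 1 probe set each of Coro1a, Sgpl1 and Sphk1). An unadjusted p under 0.05 was reached by 2 of the 9 under oil, against 8.95% of all probe sets, and by 1 of the 9 under TCDD, against 7.44%.

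The receptor S1pr4 and the cytoskeletal gene Coro1a lay on opposite sides, and their start-site windows are shown because of the measured members only these genes have a probe set whose 4 emigrant arrays lie apart from its 4 thymocyte arrays. No window of S1pr1 was used here. Each window runs 5′ to 3′ on the gene's own strand, from 250 bases before to 50 after the annotated start, as RefSeq gives it for GRCm38.p6. Capitals mark CACCC or its reverse complement GGGTG, the letters of Krueppel-like factor sites, and GCGTG or CACGC, the core of the AhR response element, none of which overlapped another match. The S1pr4 window is chr10:81500088-81500387 on the minus strand and the first of 2 Coro1a windows is chr7:126704767-126705066 on the minus strand.
S1pr4: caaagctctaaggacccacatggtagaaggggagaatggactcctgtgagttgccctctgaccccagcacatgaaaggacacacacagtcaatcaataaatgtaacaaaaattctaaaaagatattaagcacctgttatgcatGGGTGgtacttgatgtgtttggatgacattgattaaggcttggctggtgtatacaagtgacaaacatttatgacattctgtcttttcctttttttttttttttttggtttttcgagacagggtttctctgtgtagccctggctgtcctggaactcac
Coro1a: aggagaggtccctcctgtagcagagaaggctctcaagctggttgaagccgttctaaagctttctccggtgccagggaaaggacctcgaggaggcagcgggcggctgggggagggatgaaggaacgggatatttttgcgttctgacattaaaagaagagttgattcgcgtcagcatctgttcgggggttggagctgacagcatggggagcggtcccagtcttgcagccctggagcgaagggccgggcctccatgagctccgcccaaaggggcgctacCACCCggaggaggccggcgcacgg

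Each of these windows held 1 match to CACCC on either strand, at base 144 of the S1pr4 window and base 277 of the Coro1a window, and none to GCGTG. The second Coro1a window held 4 matches to CACCC and none to GCGTG. Of all 32851 windows of 300 bases in the RefSeq table, 57.5% held CACCC and 32.4% held GCGTG on 1 of the strands, so matches of such short letters are common. The Sgpl1 window held neither, and each of the 5 Sphk1 windows, several of which overlap, held GCGTG. Guanine and cytosine made up 41.0% of the S1pr4 window and 61.3% of the first Coro1a window.

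Coro1a, whose product binds F-actin in blood cells, had 2 bright probe sets, both lower on average in emigrants. Probe set 1455269_a_at read 8.86 and 7.90 in oil thymocytes, 8.75 and 7.87 in TCDD thymocytes, 7.78 and 7.42 in oil emigrants and 7.93 and 7.19 in TCDD emigrants. Probe set 1416246_a_at read 8.55 and 7.17 in oil thymocytes, 8.41 and 7.33 in TCDD thymocytes, 7.03 and 6.73 in oil emigrants and 6.79 and 6.45 in TCDD emigrants. In both, the thymocyte arrays numbered 1 were the highest of the 8, and emigrants TCDD 2 was the lowest. For the second of them all 4 emigrant arrays lay below all 4 thymocyte arrays, while for the first emigrants TCDD 1 lay above both thymocyte arrays numbered 2.

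Between emigrants and thymocytes the brighter Coro1a probe set differed by -0.78 under oil (SE 0.452, interval -1.87 to 0.32, limma adjusted p = 0.716) and by -0.76 under TCDD (SE 0.452, interval -1.85 to 0.34, limma adjusted p = 0.785). The other differed by -0.98 under oil (SE 0.525, limma adjusted p = 0.688) and by -1.25 under TCDD (SE 0.525, limma adjusted p = 0.681). Neither passed the test, and the probe sets share a gene and the same arrays, so they are not independent. Without thymocytes oil 1 the difference under oil was -0.29 for both of these probe sets. Under TCDD the brighter differed by -0.32 without thymocytes TCDD 1 and by -0.39 without emigrants TCDD 2, and the other by -0.71 without thymocytes TCDD 1. These thymocyte arrays numbered 1 are also those with the largest 3 prime minus 5 prime signal of Gapdh (6.23 and 5.90). That of actin was largest in emigrants TCDD 1 (4.68), where the bright Coro1a probe sets read 7.93 and 6.79. In every group the actin signal and both bright Coro1a probe sets were higher in the array numbered 1 than in the array numbered 2. The part of RNA quality in the result was not tested. The remaining Coro1a probe set, 1435288_at, lay below the array medians on all 8 arrays, between 3.09 and 3.33, and differed by 0.05 and -0.02.

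Of the enzymes, Sgpl1, the lyase that irreversibly cleaves S1P, lay near the array medians. Its brighter probe set (1415892_at) read 4.13 and 4.89 in oil thymocytes, 4.34 and 4.68 in TCDD thymocytes, 4.87 and 5.36 in oil emigrants and 4.94 and 5.49 in TCDD emigrants. Within every group the array numbered 2 was the higher, and of the thymocyte arrays only oil 2 exceeded its array median. The difference of emigrants from thymocytes was 0.61 under oil (SE 0.336, interval -0.21 to 1.42, limma adjusted p = 0.698) and 0.70 under TCDD (SE 0.336, interval -0.11 to 1.52, limma adjusted p = 0.711). Under TCDD both emigrant arrays lay above both thymocyte arrays, and under oil emigrants 1 and thymocytes 2 overlapped. Without thymocytes oil 1 the difference under oil was 0.23, and without emigrants oil 2 it was 0.36. Without emigrants TCDD 2 the difference under TCDD was 0.43. No fold is given, since both TCDD thymocyte arrays lay below their medians. The other Sgpl1 probe set (1415893_at) lay below the medians on all arrays, between 3.94 and 4.39, and differed by -0.20 under oil and 0.13 under TCDD.

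Sphk1, the kinase that phosphorylates sphingosine to S1P, lay below the array medians on all 8 arrays with both of its probe sets. The brighter (1451596_a_at) read 4.79 and 4.77 in oil thymocytes, 4.46 and 4.61 in TCDD thymocytes, 4.87 and 4.22 in oil emigrants and 4.79 and 4.64 in TCDD emigrants. Emigrants differed from thymocytes by -0.23 under oil and 0.18 under TCDD (SE 0.225 for both, limma adjusted p = 0.831 and 0.921). The other probe set (1420566_at), highest in emigrants TCDD 2, differed by 0.07 and 0.16. With no level shown to be above background, these values do not show whether Sphk1 was expressed.

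**Figure D2:**
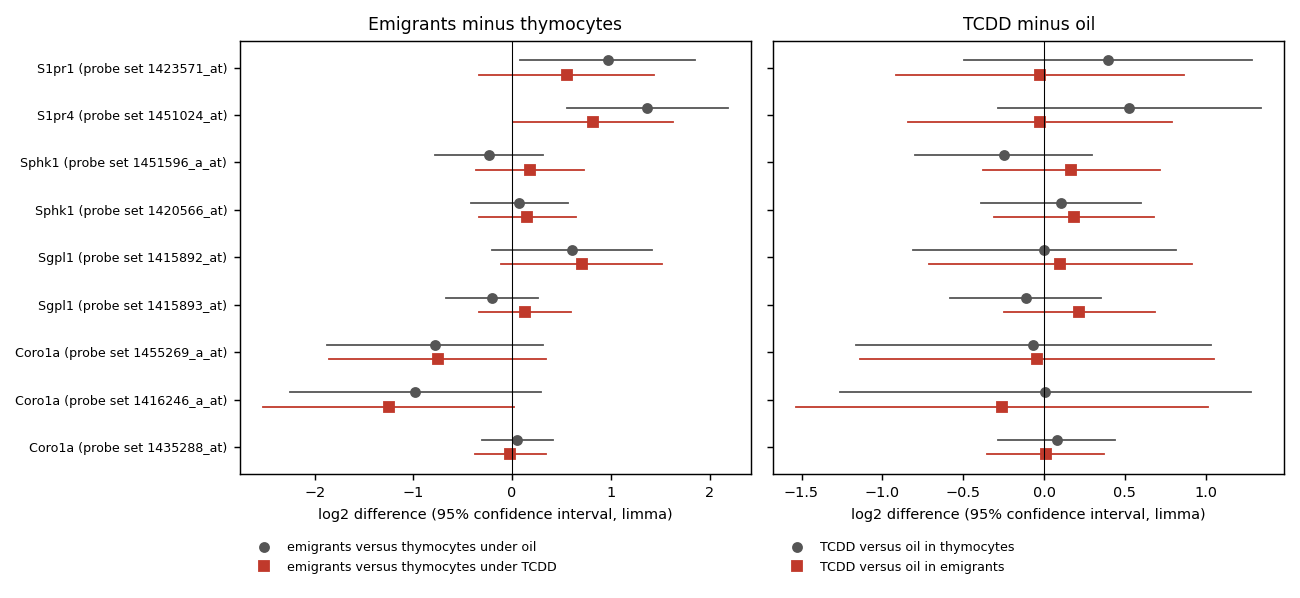
Log2 differences of the 9 member probe sets with 95% confidence intervals from limma, for emigrants minus thymocytes (left, under oil and under TCDD) and for TCDD minus oil (right, in thymocytes and in emigrants). Intervals exclude 0 for S1pr1 under oil and for S1pr4 under both treatments, before any adjustment, and every interval on the right includes 0.

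The difference between places was also taken as the mean of those under oil and under TCDD, in the same fit, a comparison chosen after the data were examined. It sets 4 arrays against 4, of which same-numbered thymocyte arrays deviated together (r of 0.73 across probe sets) and so did same-numbered emigrant arrays (r of 0.52). S1pr4 was higher in emigrants by 1.10 (SE 0.238, interval 0.52 to 1.67, limma adjusted p = 0.122, unadjusted p = 0.0033), and 98.6% of all probe sets had a lower difference. S1pr1 was higher by 0.76 (SE 0.260, limma adjusted p = 0.268) and the brighter Sgpl1 probe set by 0.66 (SE 0.237, limma adjusted p = 0.292). Coro1a differed by -0.77 (SE 0.320, limma adjusted p = 0.358) and -1.12 (SE 0.371, limma adjusted p = 0.256) in its bright probe sets. The brighter Sphk1 probe set differed by -0.03 (SE 0.160).

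In this average, 14 of the 22626 probe sets passed limma's adjusted threshold (0.0619%), and none of the 9 member probe sets did. Leaving out any 1 of the thymocyte arrays, or emigrants TCDD 2, brought that count to 0, and leaving out emigrants oil 1 brought it to 2. Leaving out emigrants oil 2 raised it to 48 and leaving out emigrants TCDD 1 to 76. An unadjusted p under 0.05 was reached by 4 of the 9 members (S1pr1, S1pr4, 1 Sgpl1 and 1 Coro1a probe set), against 14.1% of all probe sets. All 4 arrays were separated from all 4 for 2 of the 9, S1pr4 and Coro1a 1416246_a_at, against 11.8% of all. For each of these the exact two-sided permutation test over arrays gave p = 0.0286, the smallest that 4 against 4 can give. This test takes the 4 arrays of a place as independent, which the shared deviations of same-numbered arrays do not support, and 2 against 2 cannot go below p = 0.333 in an exact test. For S1pr1 and for Sgpl1 1415892_at the exact test gave p = 0.0571, and for the brighter Coro1a probe set p = 0.0857.

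TCDD was compared with oil to ask whether AhR activation alters the exit regulators. In thymocytes both receptors lay higher after TCDD, S1pr4 by 0.53 (SE 0.336, interval -0.29 to 1.34, limma adjusted p = 1) and S1pr1 by 0.39 (SE 0.368, interval -0.50 to 1.28, limma adjusted p = 1), with overlapping arrays. Between same-numbered thymocyte arrays S1pr4 was higher by 0.50 and 0.56, and S1pr1 by 0.56 and 0.23. The unpaired differences moved with single arrays: S1pr1 differed by 0.01 without thymocytes oil 1 and by 0.77 without thymocytes oil 2, and S1pr4 by 0.16 without thymocytes TCDD 2 and by 0.90 without thymocytes TCDD 1. When same-numbered arrays of a place were blocked together, the differences had an unadjusted p of 0.0286 for S1pr4 and 0.045 for S1pr1 in limma, and adjusted p-values of 0.808 and 0.871. The bright Coro1a probe sets differed by -0.07 and 0.01 and the brighter Sgpl1 probe set by 0.00. Sphk1 1451596_a_at, at -0.25 (SE 0.225), was the only member whose TCDD arrays lay apart from the oil arrays, where 20.7% of all probe sets did. None of the 9 had an unadjusted p under 0.05, against 1.38% of all.

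In emigrants the receptor means were close with and without TCDD. S1pr1 differed by -0.02 (SE 0.368, interval -0.91 to 0.87) and S1pr4 by -0.02 (SE 0.336, interval -0.84 to 0.79), both with a limma adjusted p of 0.9998. These intervals still allow changes of nearly 1 log2 unit in either direction. The brighter probe sets of Coro1a, Sgpl1 and Sphk1 differed by -0.04, 0.10 and 0.17. Only the dim Sgpl1 probe set, at 0.22, had TCDD arrays lying apart from the oil arrays, where 24.6% of all probe sets did, and 0 of the 9 had an unadjusted p under 0.05, against 1.21% of all. If emigrants oil 1 is placed among the TCDD arrays, following its Treatment entry, the differences become 0.48 for S1pr1 and 0.29 for S1pr4, and -0.26 for Sgpl1 and 0.21 for Coro1a. AhR target genes in that array ran with its title: Scin was at 4.88, against 4.87 in emigrants oil 2 and 9.97 and 6.30 in TCDD emigrants, and its Cyp1b1 (4.69) was the lowest of the emigrants. Tiparp, also an AhR target, was at 6.56 there, 5.83 in emigrants oil 2 and 7.74 and 9.09 in TCDD emigrants.

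The TCDD difference in emigrants minus that in thymocytes tests whether the response depends on place. It was -0.55 for S1pr4 (SE 0.476), -0.42 for S1pr1 (SE 0.520), 0.42 for Sphk1 (SE 0.319), 0.10 for Sgpl1 (SE 0.475) and 0.02 for Coro1a (SE 0.640) in the brightest probe sets. Leaving out 1 array brought it to -0.18 for S1pr4 (without thymocytes TCDD 2), -0.03 for S1pr1 (without thymocytes oil 1) and 0.09 for Sphk1 (without emigrants oil 2). None of the 9 probe sets had an unadjusted p under 0.05, against 1.28% of all, and the smallest limma adjusted p among them was 0.9997.

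Around the members, 6 lists of genes of the same pathway were followed, with 69 of 77 listed genes measured, each by its brightest probe set. None of them passed limma's adjusted threshold in any comparison, so the values that follow describe these arrays. Over both treatments the median difference of emigrants from thymocytes was 0.66 for the 5 measured members, which is the value of Sgpl1, with 3 members higher and 2 lower, against 0.03 for all probe sets.

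The remaining S1P receptors were dim. S1pr5, known for the exit of NK cells, lay below the array medians throughout, at 4.46 and 3.74 in the emigrant arrays numbered 1 and between 3.03 and 3.22 in the other 6. S1pr3 lay between 4.41 and 4.82, also below the medians. Of 12 measured genes that make, export or break down S1P, 9 were higher and 3 lower in emigrants (median 0.19). Asah1, the acid ceramidase that frees sphingosine, was at 7.49, 7.73, 7.74 and 7.59 in thymocytes and at 8.32, 9.10, 8.58 and 8.60 in emigrants, a mean difference of 1.01 (SE 0.185, limma adjusted p = 0.0928). Cers5, a ceramide synthase, differed by 0.61, and Sptlc2, a subunit of the enzyme that starts sphingolipid synthesis, by 0.34. Under TCDD the exporter Spns2, below the medians on all arrays, differed by 0.22 in thymocytes and -0.22 in emigrants.

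Genes that couple or desensitize such receptors were mostly higher in emigrants (11 of 13, median 0.35). So were all 7 macrophage and dendritic markers (median 0.49). Under TCDD in emigrants, 11 of the 13 coupling genes were higher, as were all 7 macrophage and dendritic and all 9 granulocyte markers (medians 0.40 and 0.81). All 6 erythroid and all 5 platelet markers were higher too (medians 0.45 and 0.26). The granulocyte mean was 8.36 in emigrants TCDD 1 but 5.70 in emigrants TCDD 2, against 6.23 and 6.00 in oil emigrants. Under TCDD in thymocytes, 11 of the 13 coupling genes were also higher. There 1 of 7 macrophage and dendritic, 0 of 9 granulocyte, 3 of 6 erythroid and 5 of 5 platelet markers were higher. The part of such cells was not tested. Gna13, a G protein alpha subunit, differed by 1.14 (SE 0.240, limma adjusted p = 0.114), and all 4 emigrant arrays (8.51 to 9.09) lay above all 4 thymocyte arrays (6.98 to 8.38). The other probe sets of Gna13 differed by 0.19 to 1.25. The arrestins Arrb2 and Arrb1, which end receptor signalling, differed by 0.71 and 0.80. Another Arrb2 probe set, below the array medians on all arrays, differed by -0.11. Under TCDD in emigrants, Arrb2 differed by 0.66 (unadjusted p = 0.027), Arrb1 by 0.71, and the inhibitory G protein subunit Gnai3 by -0.93 (unadjusted p = 0.0163), each with a limma adjusted p of 0.9998. Gna13 differed by 0.73 under TCDD in thymocytes.

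Among the actin and motility partners of Coro1a, 12 of 19 were higher and 7 lower in emigrants (median 0.10). Cdc42, a GTPase that steers actin assembly, differed by 0.75 (SE 0.102, limma adjusted p = 0.0614), and its arrays were fully separated. Its other bright probe sets differed by 0.86, 0.89 and 0.03. Msn, which links actin to the membrane, differed by 0.45, and Rhoh, a GTPase of blood cells, by -0.70. Coro1c, a relative of Coro1a, differed by 0.61 under oil in its brightest probe set (limma adjusted p = 0.751). Its other probe sets, below the array medians on all arrays, differed by -0.09, -0.33 and -0.46.

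In the exit programme of maturing T cells, 7 of 10 genes were higher and 3 lower in emigrants (median 0.38). Itgb7, an integrin chain, was higher in all 4 emigrant arrays (7.65 to 8.54) than in all 4 thymocyte arrays (6.31 to 7.41), by 1.29 (SE 0.154, limma adjusted p = 0.0614). Il7r, the interleukin 7 receptor, differed by 1.66, and the prostaglandin receptor Ptger4 by -1.19. Klf2, a transcription factor known to drive S1pr1, was at 4.57 and 4.57 in oil thymocytes, 5.45 and 5.87 in TCDD thymocytes, 6.59 and 4.62 in oil emigrants and 7.10 and 5.39 in TCDD emigrants. Its TCDD thymocyte arrays thus lay above its oil thymocyte arrays, which were below their medians, with a difference of 1.09 (unadjusted p = 0.197). Itgb7 also differed by 0.76 under TCDD in thymocytes (unadjusted p = 0.0119) and by 0.59 in emigrants (unadjusted p = 0.0342).

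Of 13 activation genes that commonly accompany Cd69, 9 were higher and 4 lower in emigrants (median 0.58). Egr1 and Cd44 differed by 1.35 and 1.26, and Il2ra, the CD25 chain that also marks a stage of double-negative thymocytes, by -2.39, with all 4 emigrant arrays apart from all 4 thymocyte arrays in each. Under TCDD the smallest p in this list belonged to Myc in thymocytes (-0.71, unadjusted p = 0.0857) and to Cd44 in emigrants (0.58, unadjusted p = 0.218).

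**Figure D3:**
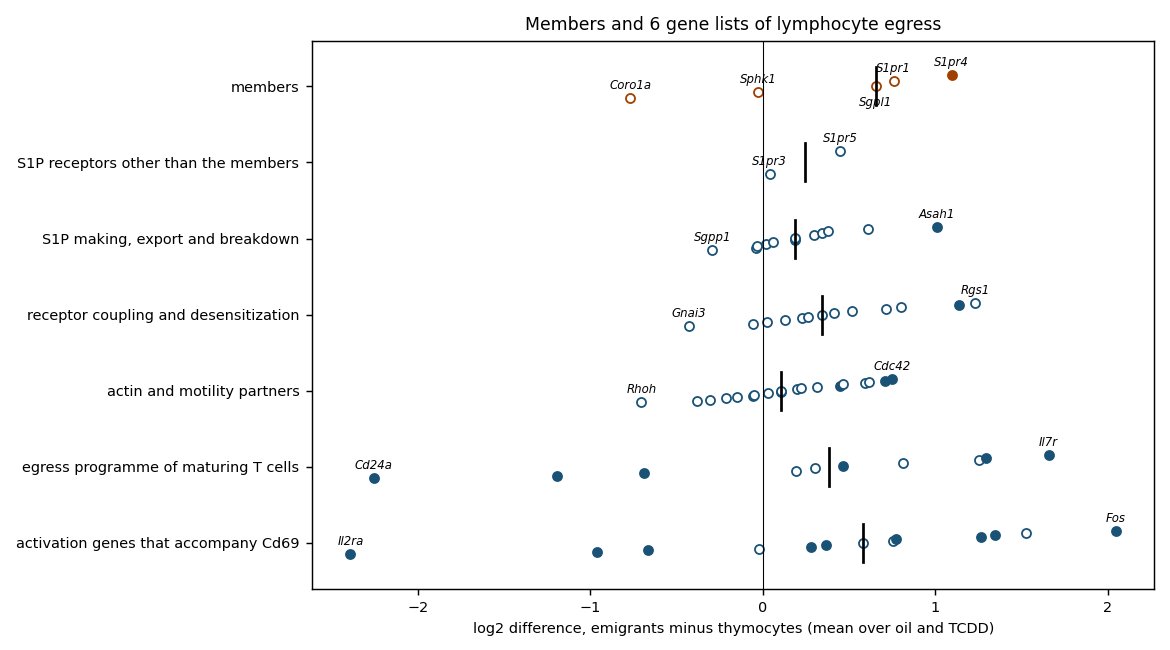
Log2 difference of emigrants minus thymocytes, averaged over oil and TCDD (horizontal axis), for the brightest probe set of each measured member and of the genes in 6 lists. Filled points are genes whose 4 emigrant arrays do not overlap their 4 thymocyte arrays, vertical bars are list medians, and names are given for members and for the lowest and highest gene of a list. S1pr4 is the only filled member, at 1.10, and Coro1a is the lowest, at -0.77.

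The genes whose pattern over the 8 arrays was most like that of a member were found by Pearson's r among 10316 named probe sets brighter than the median. The points are the same arrays that the comparisons use, they share array effects and fall into thymocytes and emigrants, and r is given as a description. For S1pr1 the closest were Foxo1 (r of 0.99), Slc18a1 (0.99) and Dab1 (0.98). Foxo1, a transcription factor of resting T cells, was lowest in thymocytes oil 1 (5.83) and highest in emigrants oil 1 (8.58), as S1pr1 was, with 7.32 in emigrants oil 2. Slc18a1 and Dab1 followed nearly the same order over a much smaller span, from 5.20 to 5.77 and from 4.81 to 5.30.

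For S1pr4 the closest were Zfp36l1 (0.98), Cdc37l1 (0.98) and Fam102a (0.98), and each had its 4 emigrant arrays above its 4 thymocyte arrays. For Coro1a they were Taf5l (0.98), Nup133 (0.98) and Vamp7 (0.98), which like Coro1a were highest in the thymocyte arrays numbered 1. Vamp7 ranged from 7.11 and 6.89 there to 4.79 and 4.87 in the thymocyte arrays numbered 2, so this shape holds a difference between array numbers as well as between places. For Sgpl1 they were Sox10 (0.99), Rab2a (0.99) and Cyp51 (0.98), each higher in the array numbered 2 of every group. For Sphk1, whose own values spanned 0.65 log2 units, the closest were Fem1a (0.92), Krtap8-1 (0.90) and Rad9a (0.90).

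**Figure D4:**
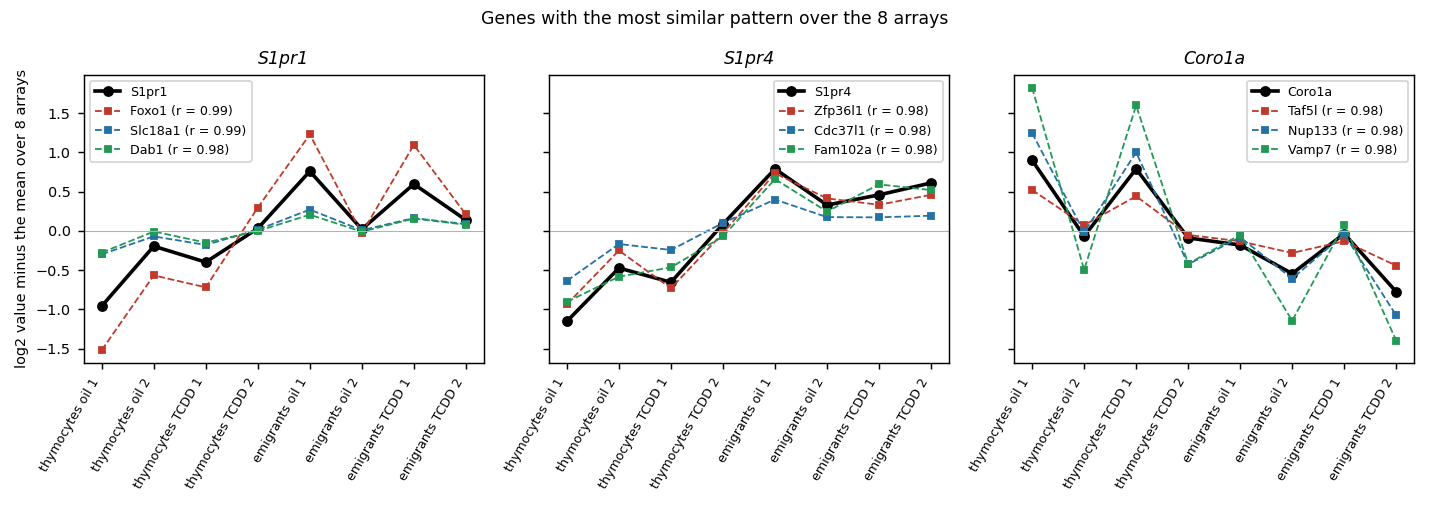
Log2 value minus the gene's own mean over 8 arrays (vertical axis) on each array (horizontal axis) for S1pr1, S1pr4 and Coro1a (black) and the 3 genes with the highest Pearson r to each (dashed). Lines only guide the eye, since arrays have no order. The emigrant arrays are on the right of each panel, and the thymocyte arrays numbered 1 hold the lowest S1pr1 (5.12 in oil) and the highest Coro1a (8.86 in oil).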

How the data were processed

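RNA of sorted cells was amplified and hybridised to Affymetrix arrays, per the labels' protocols. The authors deposited log2 values per probe set, and per the submitters' processing notes they come from RMA, whose version is not given in the sources used here. RMA makes the arrays' distributions alike and compresses differences of dim probe sets, and a shift common to most genes would not be seen. Names come from GEO's annotation of the platform, updated through gene identifiers with a RefSeq table of GRCm38.p6, and 20393 had 1 symbol. The 22626 probe sets that are not AFFX controls were fitted with limma 3.58.1 in R 4.3.3 on group means over 8 arrays (4 residual degrees of freedom, eBayes, two-sided, Benjamini-Hochberg, threshold 0.05). The code was tested on simulated data. The members and lists were chosen with earlier results of these data known. Named are all member probe sets, up to 3 genes per list and comparison with the smallest p, the 3 genes most like each member; Rag1, Cyp1b1 and marker lists were added as checks. Same-numbered arrays deviated together within thymocytes and within emigrants but not across them (r between -0.15 and 0.12), and the labels do not say that a number marks a shared batch, so no block was used. Alternatives were other normalizations, filters, units, priors, blocks, labels and arrays left out. No columns of samples were left out.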

Additional observations from a re-analysis of the deposited data

How the results depend on the processing

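No difference of a member's brightest probe set passed limma's adjusted threshold in the alternatives recomputed for it (smallest adjusted p 0.0649, Sgpl1 averaged). The crossed pairing named below was not among these alternatives. Of 503 recomputed member differences 39 changed sign. Between emigrants and thymocytes, under oil, under TCDD and averaged, the brightest probe sets of S1pr1, S1pr4, Sgpl1 and Coro1a kept their sign in every one of these alternatives. Dim probe sets did not: Sgpl1 1415893_at turned to 0.0119 under oil and 0.0703 averaged without thymocytes oil 1, and Coro1a 1435288_at to -0.0223 under oil without thymocytes oil 2. With arrays left out 1 at a time, the TCDD difference in thymocytes ran from -0.3760 to 0.3800 for Sgpl1 and from -0.5494 to 0.4179 for Coro1a. In emigrants it ran from -0.1777 to 0.3768 for Sgpl1, -0.3916 to 0.3470 for S1pr1, -0.2549 to 0.2055 for S1pr4, -0.1557 to 0.4914 for Sphk1 and -0.4128 to 0.3263 for Coro1a. Sphk1 ran from -0.5583 to 0.0888 under oil and from -0.1880 to 0.1356 averaged. The difference between TCDD effects ran from -0.2804 to 0.4756 for Sgpl1 and from -0.4612 to 0.5061 for Coro1a. Under the Treatment entry of emigrants oil 1, the TCDD difference in emigrants was -0.2631 for Sgpl1, 0.4775 for S1pr1, 0.2905 for S1pr4 and 0.2137 for Coro1a, and the difference between TCDD effects was -0.2651 for Sgpl1 and 0.0845 for S1pr1. Repeated quantile normalization gave -0.0018 for Sgpl1 in thymocytes and, in emigrants, 0.0545 for S1pr4 and 0.0314 for Coro1a, and median centring gave -0.0050 for Sgpl1 in thymocytes. The mean of a gene's probe sets gave -0.0563 for Sgpl1 and 0.0071 for Coro1a (TCDD, thymocytes), -0.1048 for Coro1a (difference between TCDD effects) and 0.0444 for Sphk1 (averaged). Counts of probe sets past the threshold, 0 in each designed comparison, became 1 with the Treatment entry for TCDD in emigrants, for emigrants against thymocytes under oil and for the difference between TCDD effects, and 16 for emigrants against thymocytes under TCDD. They became 1 under oil with the mean of probe sets and 1 under TCDD with a trended robust prior, and ran from 0 to 14 under TCDD with arrays left out. The averaged count of 14 became 35 with quantile normalization, 109 with brighter probe sets only, 69 with the mean of probe sets, 8 with the trended robust prior and 88 with the Treatment entry, and ran from 0 to 76 with arrays left out. With the replicate number as a block over all arrays it became 226, and with the crossed pairing, added after seeing the data, 234; with the block within each cell source, the count for TCDD in thymocytes became 1. Numbers are shared by pairs of arrays only, and the block within each source cannot estimate differences between sources. Sphk1 has no value among brighter probe sets. The cause of these changes was not tested.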
